A study of Mus musculus with 6 samples.

Results

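In RNA-seq of mouse aorta, 66 genes had a count of 0 in each of 3 ApoE-/- libraries and a count of at least 20 in each of 3 IL16-/-ApoE-/- libraries. They were chosen by those counts alone, out of 55401 genes in the table, of which 32749 had a count in at least 1 library. The counts were met by 71 genes, or 0.358% of the 19833 genes tested for the genotype contrast, and 5 were dropped by family, namely the potassium channel gene Kcnj1 and the immunoglobulin genes Ighg1, Igkv6-23, Ighv6-3 and Igkv17-127. The difference between genotypes in the 66 genes is therefore how they were selected and is given as a description, with no test. Of the 66, 64 are annotated as protein coding and 2 as non-coding. Marker lists of nephron segments, nephron epithelium or nephron transcription factors hold 37 of them, and 29 are on none of these lists. The lists were chosen with earlier results of these data known, so these numbers are a description.

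All mice in the series carried the ApoE-/- genotype, and 1 group also carried IL16-/-. ApoE-/- mice lack apolipoprotein E, a ligand for clearance of lipoprotein remnants, and are a standard model of atherosclerosis. Interleukin 16 is a T cell chemoattractant cytokine. The mice of both genotypes were 8 weeks old when a high-fat diet of 24 weeks began, and RNA came from the aorta. Each group had 3 samples, called here ApoE-/- 1 to 3 and double mutant 1 to 3. The labels give neither the sex of the mice nor whether a sample was 1 animal or a pool, so the spread between samples may be partly technical.

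The nephron is a tube of successive epithelial segments. The proximal tubule has a brush border of microvilli and takes up glucose, amino acids and phosphate, secretes organic anions and metabolises drugs. The thick ascending limb of the loop of Henle absorbs salt and secretes uromodulin, the distal and connecting tubules adjust salt and calcium, and intercalated cells of the collecting duct pump acid and carry ammonia. PAX8 and HNF4A are transcription factors of this epithelium. None of these cells belongs to the wall of the aorta.

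ApoE-/- libraries held 65730552 to 85568269 counts in total, and double mutant libraries held 42861980 to 47208779, so the genes were at 0 in the deeper libraries. Aortic smooth muscle markers (Myh11, Acta2, Tagln, Cnn1, Smtn and Actg2) were present in all 6 libraries, where ApoE-/- 1 to 3 summed to 4211, 18600 and 26840 CPM (counts per 1000000, scaled by edgeR's TMM factors) and double mutant 1 to 3 to 9561, 8431 and 9254 CPM. Endothelial markers summed to 540 to 1130 CPM in all 6. Il16 stood at 28.3, 28.7 and 15.1 CPM in ApoE-/-, above the 7.93, 12.1 and 12.2 CPM of the double mutants. Apoe stood at 45.04, 24.9 and 20.9 CPM in ApoE-/-, below the 138, 183 and 137 CPM of the double mutants. The sources used here do not say which exons are deleted, so these counts do not check the labels. ApoE-/- 1 stood apart in sex-linked genes, with Xist at 474 CPM and Ddx3y at 0.143 CPM, whereas the other 5 libraries had Xist at 0.497 to 6.21 CPM and Ddx3y at 70.1 to 136 CPM. In bulk tissue, fewer cells of a type and less RNA per cell cannot be told apart.

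Kap was the most abundant of the 66 genes. It encodes the kidney androgen-regulated protein, a secreted product of proximal tubule cells, and lies at chr6:133849851-133853762 on the minus strand (GRCm38). Its counts were 15494, 16615 and 16737 in the double mutants (365 ± 21.5 CPM, SD, n = 3) and 0 in ApoE-/- 1 to 3. Whether sex bears on Kap was not tested. Against a floor of 3 counts over the ApoE-/- group, the level was at least 28494-fold higher. Kap made up 53.4, 55.5 and 55.0% of all counts of the 66 genes. The 250 bases before its RefSeq start (GRCm38.p6, chr6:133853668-133853917, minus strand, 5′ to 3′) are shown because this gene dominates the set, with the letters TATAAA in capitals.
Kap: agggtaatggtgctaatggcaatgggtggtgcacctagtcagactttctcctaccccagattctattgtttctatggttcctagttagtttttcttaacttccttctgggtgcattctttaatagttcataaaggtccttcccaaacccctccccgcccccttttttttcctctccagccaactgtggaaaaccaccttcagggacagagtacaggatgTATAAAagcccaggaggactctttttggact

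Promoters of the set were searched for the letters bound by the nephron factors HNF1 and HNF4. RefSeq promoters (250 bases before to 50 after each start) were matched for 52 of the 66 genes. The HNF1 half-site GTTAAT, on either strand, stood in 15 of the 52 (28.8%, 95% Wilson interval 18.3 to 42.3%) and in 8.24% of the promoters of all 27025 genes in the table of RefSeq promoters. The interval takes genes as independent, but some are neighbours or paralogs, such as Slc22a6 with Slc22a8, so it is not a test. Those 15 genes were Acsm2, Atp6v1g3, Cdhr2, Cpn1, Cyp2a4, F13b, Gm10804, Guca2b, Hao2, Miox, Nat8, Slc22a6, Slc22a8, Slc5a10 and Umod. Windows of 7 of them follow, 5′ to 3′ on the strand of the gene, with the half-site or its reverse complement in capitals, because they include the most abundant matched genes of the proximal tubule and the thick ascending limb. A match of letters is a description and not evidence of binding.
Acsm2 (chr7:119554154-119554199, plus strand): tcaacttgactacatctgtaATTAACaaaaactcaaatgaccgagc
Umod (chr7:119479439-119479484, minus strand): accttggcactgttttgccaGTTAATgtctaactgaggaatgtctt
Miox (chr15:89334311-89334356, plus strand): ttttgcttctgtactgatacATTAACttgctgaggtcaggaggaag
Slc22a6 (chr19:8617920-8617965, plus strand): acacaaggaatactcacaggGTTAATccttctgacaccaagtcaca
Slc22a8 (chr19:8593081-8593126, plus strand): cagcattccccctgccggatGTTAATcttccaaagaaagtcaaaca
Guca2b (chr4:119658953-119658998, minus strand): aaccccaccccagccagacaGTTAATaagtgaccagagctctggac
Nat8 (chr6:85832281-85832326, minus strand): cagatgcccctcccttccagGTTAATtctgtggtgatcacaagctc

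The capitals began 27 bases before the start in Nat8, 33 in Guca2b, 56 in Slc22a6, 81 in Slc22a8, 142 in Miox, 166 in Acsm2 and 202 in Umod. The full palindromic HNF1 site was in none of the 52, against 0.0111% of all promoters. The HNF4 letters CAAAGTCCA stood in 5 of the 52 (9.62%) against 0.555% of all, and in 2 (3.85%, Aadat and Treh) against 0.451% when the bases after the start were left out. The Treh window is shown with these letters, as their reverse complement, in capitals.
Treh (chr9:44673142-44673190, plus strand): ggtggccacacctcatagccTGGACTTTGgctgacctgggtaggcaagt
The letters CAAAGGTCA (HNF4) and TCAAGGTCA (ERR) were in none of the 52, against 0.544% and 0.466% of all promoters. TATAAA was in 11.5% of the 52 and 15.7% of all.

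Among the other secreted proteins, Umod and Klk1 were the most abundant. Umod, which encodes uromodulin of the thick ascending limb, had 1403, 1506 and 1282 counts in the double mutants (31.3 ± 1.28 CPM, SD, n = 3). Klk1, the tissue kallikrein that the connecting tubule releases, had 1215, 1169 and 1261 counts (27.3 ± 2.48 CPM). Both were at least 2130-fold above the floor of 3 counts over the ApoE-/- group. Spink1, a trypsin inhibitor, had 183, 208 and 173 counts. Guca2b, the precursor of the natriuretic peptide uroguanylin, had 185, 150 and 177 counts. Serpina1f, a member of the serpin family, had 155, 91 and 194 counts and was lowest in double mutant 2. The remaining secreted proteins, the whey acidic protein domain gene Wfdc15b, the coagulation factor XIII B chain gene F13b and the carboxypeptidase N gene Cpn1, had mean levels from 0.867 to 1.79 CPM.

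Carriers of organic anions formed a group of 6 genes. Slc22a12, which encodes the urate exchanger of the proximal brush border, had 581, 462 and 545 counts in the double mutants (11.9 ± 1.96 CPM). Slc22a6, the basolateral organic anion exchanger known as OAT1, had 260, 236 and 251 counts (5.59 ± 0.560 CPM). Slc22a8, known as OAT3, had 171, 134 and 199 counts. All of these were lowest in double mutant 2 in CPM, and the ranking Slc22a12, Slc22a6, Slc22a8 held within each of the 3 libraries. Slc22a7 (OAT2) had 131, 134 and 113 counts. Slco1a6, of the organic anion transporting polypeptide family, had 80, 129 and 102 counts. Slc22a28, of the same family as Slc22a6, had 67, 68 and 70 counts.

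Carriers of sugars and amino acids were less abundant, apart from a pair of amino acid genes. Slc7a13, a carrier of acidic amino acids, had 332, 323 and 393 counts (7.86 ± 1.20 CPM). Slc6a18, a carrier of neutral amino acids in the brush border, had 257, 245 and 223 counts (5.42 ± 0.437 CPM). Slc44a4, a choline-like carrier, had 44, 62 and 68 counts. Among sugar carriers, the proximal tubule sodium-glucose cotransporter gene Slc5a2 was the most abundant per length as well as in CPM. It had 129, 135 and 118 counts (2.85 ± 0.114 CPM). Slc5a10, a sodium-dependent sugar carrier of the kidney, had 70, 54 and 74 counts. Slc2a2, the facilitative glucose carrier of liver, islets and proximal tubule, had 34, 46 and 44 counts. Slc5a1, the sodium-glucose cotransporter of intestine and late proximal tubule, had 35, 43 and 27 counts.

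Salt, acid-base and water transport was represented by 6 genes, all of the loop of Henle or of intercalated cells. Slc12a1, the sodium-potassium-chloride cotransporter of the thick ascending limb, had 700, 659 and 709 counts (15.5 ± 1.44 CPM). The other 5 are markers of intercalated cells and lay between 0.826 and 1.32 CPM. Atp6v1g3, a subunit of the proton-pumping vacuolar ATPase, had 51, 72 and 55 counts. Atp6v1b1, another subunit of that pump, had 46, 34 and 48 counts. Slc4a9, an anion exchanger, had 44, 54 and 45 counts. These 3 genes ranged from 34 to 72 counts over the double mutant libraries. Rhcg, an ammonia channel, had 29, 50 and 36 counts. Aqp6, an intracellular aquaporin, had 47, 21 and 41 counts and was close to the minimum of 20 in double mutant 2.

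Calcium handling and cell junctions contributed a pair of genes. S100g, the calcium-binding protein calbindin-D9k, had 340, 394 and 383 counts (8.34 ± 0.542 CPM). Cldn8, a claudin of distal tight junctions, had 39, 33 and 60 counts. S100g is short, so on the scale of CPM per kilobase of transcript it stood at 17.4, after Kap, Klk1 and Acsm2, while Cldn8 stood at 0.423.

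Enzymes grouped under drug and fatty acid metabolism, of cytochrome P450 and other families, were the biggest group, with 11 genes. Acsm2, a medium-chain acyl-CoA synthetase of the proximal tubule, had 1733, 1782 and 1730 counts (39.2 ± 1.56 CPM). Ugt2b38, a glucuronosyltransferase, had 375, 383 and 394 counts (8.62 ± 0.565 CPM). Cyp2a4, a steroid hydroxylase, had 259, 216 and 204 counts. Acsm2 was the highest of the group in each double mutant library and Ugt2b38 the next. Cyp4a31, of a family of fatty acid hydroxylases, had 210, 156 and 140 counts. Cyp2j13 had 118, 66 and 103 counts, and its family oxidises arachidonic acid. Cyp2j11, of that family too, had 77, 113 and 90 counts, so the order of the Cyp2j pair was not the same in all libraries. The esterases Aadac and Ces1e, the acetyltransferase Nat8, Ugt2b37 and Cyp2d12 lay between 0.815 and 1.98 CPM.

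Another 9 genes encode enzymes of other metabolism. Miox, the myo-inositol oxygenase that starts inositol breakdown in the proximal tubule, had 855, 858 and 830 counts (19.0 ± 0.885 CPM). Hao2, a peroxisomal hydroxy acid oxidase, had 182, 124 and 170 counts. Dao, the D-amino acid oxidase, had 190, 123 and 151 counts. After Miox the group dropped to 3.58 CPM and below. Fut9, a fucosyltransferase, had 161, 113 and 169 counts. Aadat, an aminotransferase of lysine and kynurenine breakdown, had 166, 157 and 82 counts and was lowest in double mutant 3. Rdh16f2, of the retinol dehydrogenase family, had 79, 59 and 66 counts. The brush border disaccharidase trehalase (Treh) and the steroid dehydrogenases Hsd3b2 and Hsd3b3 had 20 to 87 counts, and Hsd3b2 spread most of all 66 genes, with 32, 63 and 87 counts.

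Brush border proteins other than carriers numbered 6. Mep1a, the alpha subunit of the metalloprotease meprin, had 656, 723 and 706 counts (15.6 ± 0.741 CPM). Mep1b, the beta subunit, had 105, 126 and 167 counts. Pdzk1, a scaffold that anchors carriers in the membrane, had 341, 321 and 403 counts. The other 3 belong to the complex that links the tips of microvilli. Cdhr5, a protocadherin of that complex, had 70, 71 and 70 counts. Cdhr2, its partner, had 22, 26 and 20 counts, the lowest level of all 66 genes both in CPM (0.506 ± 0.0402) and per kilobase (0.123). Ush1c, the scaffold harmonin, had 36, 69 and 68 counts and was lowest in double mutant 1.

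Transcription factors numbered 3 among the 66 genes. Pax8, a paired-box factor of nephron and thyroid, had 51, 39 and 22 counts in the double mutants (0.835 ± 0.332 CPM). Pou3f3, a POU factor of the loop and distal nephron, had 51, 85 and 53 counts. Their coefficients of variation were 39.7% for Pax8 and 24.1% for Pou3f3. The thyroid and parathyroid list, which includes Tg, Pth and Gcm2, summed to 1.61, 1.25 and 3.39 CPM in ApoE-/- 1 to 3. In double mutant 1 to 3 that list summed to 1.11, 0.315 and 3.58 CPM. The part of such tissue in the counts of Pax8 was not tested.

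Another 5 protein-coding genes had no place in those groups. Tmem174, a membrane protein, had 168, 122 and 253 counts and differed over 2-fold between libraries. Kif12, a kinesin, had 82, 64 and 64 counts. Erich4 had 49, 34 and 32 counts. Tmem213 had 38, 40 and 20 counts, and Fam151a had 26, 21 and 38 counts. Both non-coding genes overlap or face other genes. Gm19950, antisense to part of Acsm1, had 110, 123 and 112 counts and the smallest coefficient of variation of the set (1.42%). Gm10804, a lincRNA opposite Cd82, had 29, 29 and 23 counts.

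**Figure D1:**
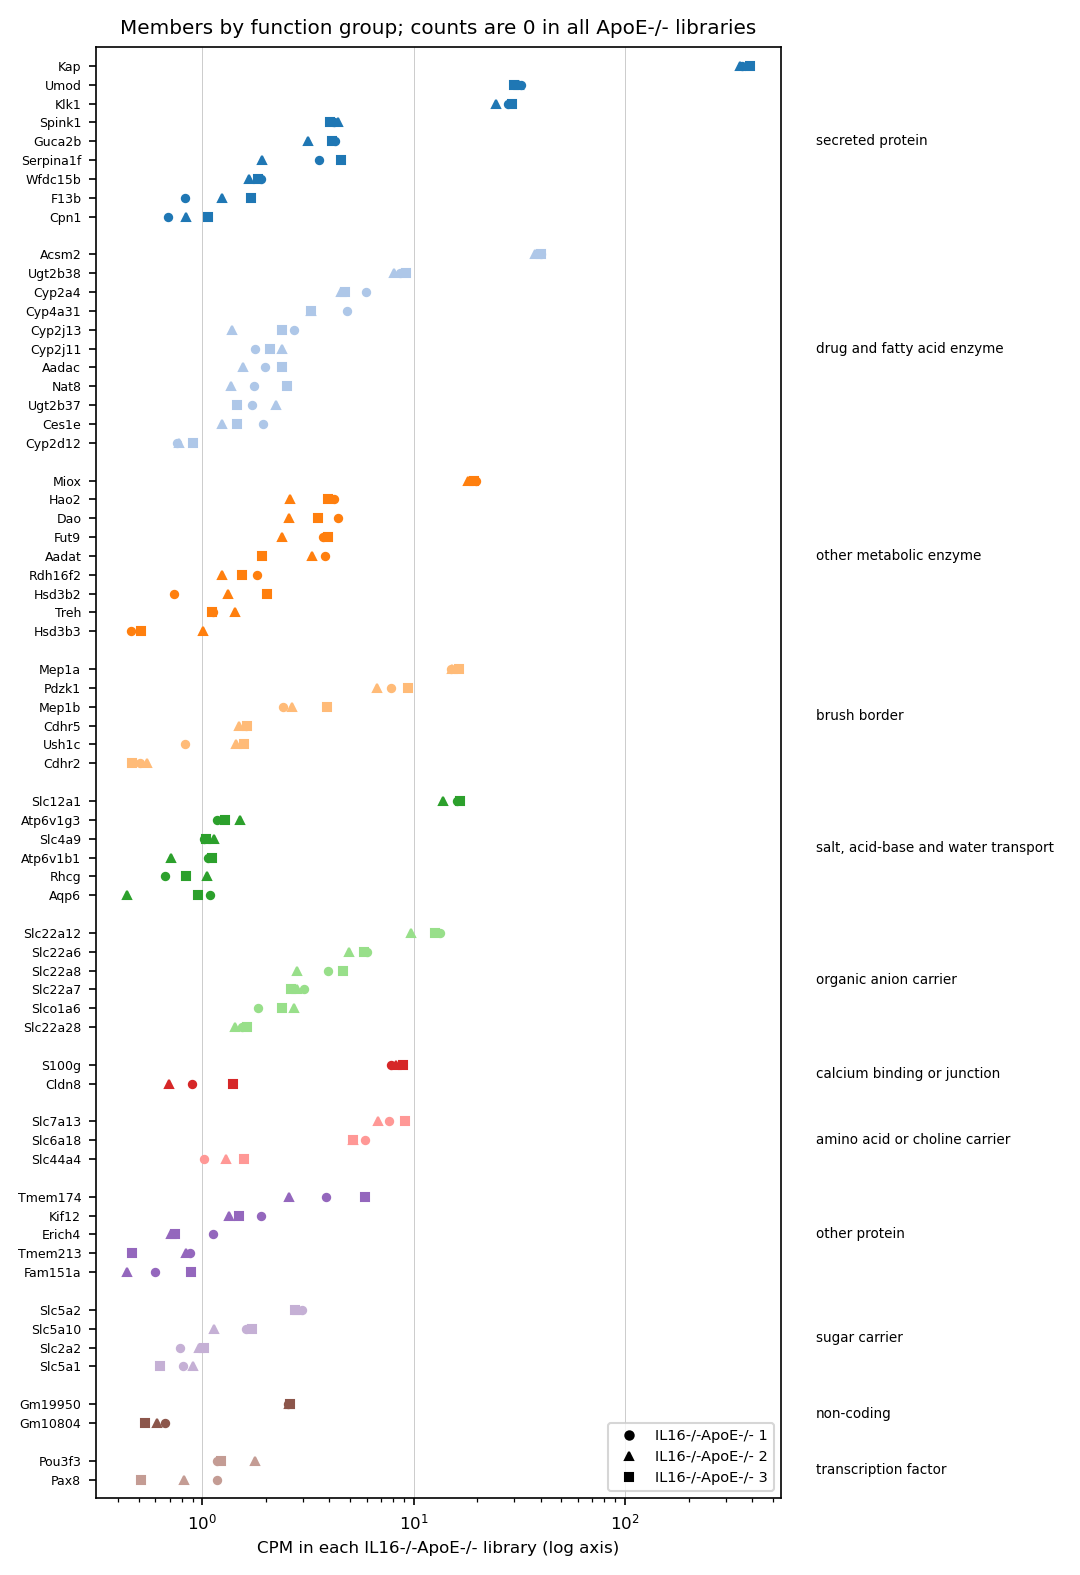
CPM (log axis) of the genes of the set that are named in the text, in double mutant libraries 1 (circle), 2 (triangle) and 3 (square), grouped and coloured by function. Kap lies alone at 349 to 389 CPM, and 7 genes, Kap included, average 15 CPM or more. All counts in the ApoE-/- libraries were 0.

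Levels across the set were uneven. Mean CPM ran from 0.506 (Cdhr2) through a median of 1.93 to 365 (Kap), with 7 genes at 15 CPM or more, 25 from 2 to 15 CPM and 34 under 2 CPM. Per kilobase of transcript, Kap stood at 624, followed by Klk1 at 28.6, Acsm2 at 18.7, S100g at 17.4, Miox at 16.8 and Umod at 12.03, around a median of 1.10. Together the 66 genes made up 669, 629 and 708 CPM in double mutant 1 to 3, or 312, 280 and 318 CPM without Kap. At their double mutant level, each would have given at least 35.3 counts in every ApoE-/- library. The bound on the fold ran from 39 to 28494, with a median of 150. The expected counts and the bounds come from the counts that the rule used. They describe the selected genes and are not further evidence of absence.

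The size of 1 count bears on these bounds. Among protein-coding genes with 1 to 40 counts, multiples of 4 made up 38.5 to 40.9% of the values in ApoE-/- libraries, and in double mutants they made up 29.4 to 30.8%, against 16.5 to 25.2% for each other remainder. The value 4 occurred 207 to 335 times in a library, and the values 1, 2, 3 and 5 occurred 35 to 125 times. With a floor of 12 counts over the group, which is 4 times as high, the bounds fell to between 10 and 7124, with a median of 38. Floors and intervals cover counting error only.

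**Figure D2:**
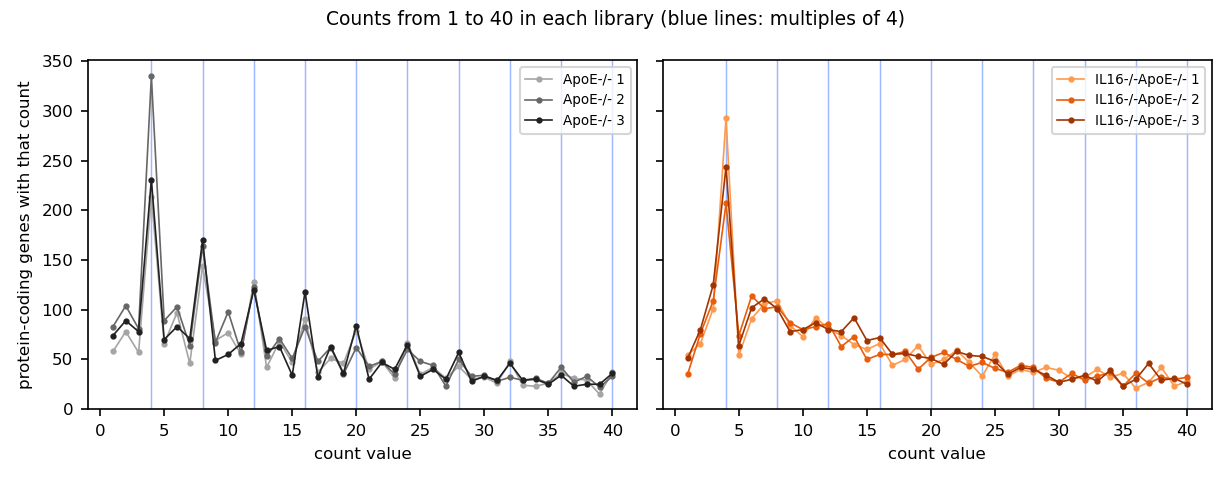
Number of protein-coding genes (vertical axis) at each count from 1 to 40 (horizontal axis) in the 3 ApoE-/- libraries (left) and the 3 double mutant libraries (right), with multiples of 4 marked by blue lines. The peak at 4 is seen in all 6 libraries, and later multiples of 4 stand out in the ApoE-/- libraries.

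The difference between genotypes was fitted for all 19833 genes that passed the filter on low counts, with edgeR's quasi-likelihood test and Benjamini-Hochberg adjustment. In that fit 226 genes (1.14%) were higher in the double mutants at an adjusted p under 0.05 and 12 (0.0605%) were lower, and the median log2 fold change was -0.05. All 66 genes passed the filter, and 59 were among those called higher. The other 7 were Pax8, Tmem213, Gm10804, Aqp6, Fam151a, Cdhr2 and Hsd3b3, with adjusted p from 0.0544 to 0.0694 in edgeR. As the same counts chose them, nothing is read from these calls. Double mutant libraries lay above all ApoE-/- libraries in 14.9% of tested genes and below them in 11.5%. Without any 1 of the double mutant libraries, edgeR called 0 genes in either direction, while 1254 to 1319 of all tested genes were higher at an unadjusted p under 0.05. Without ApoE-/- 1 it called 2651 genes higher and 2580 lower, and DESeq2 on all 6 libraries called 1133 higher (4.77% of the genes it tested) and 347 lower. At an unadjusted p under 0.05, 8.87% of all tested genes were higher in edgeR.

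At the edge of the rule, just inside were Cdhr2 (22, 26 and 20 counts), Hsd3b3 (20, 48 and 22) and Tmem213 (38, 40 and 20). Just outside, with 0 in all ApoE-/- libraries, were Cyp24a1, the vitamin D hydroxylase of the proximal tubule (19, 27 and 27), the unclassified gene Gm44120 (19, 39 and 41) and the lectin gene Clec2h (17, 38 and 32). The pseudogene Gm6375 had 1 count in ApoE-/- 2 and 35, 50 and 50 in the double mutants. Allowing 4 counts in each ApoE-/- library, a choice made after seeing the data, admitted 12 genes more. Among them was Slc34a1, the main phosphate carrier of the proximal tubule, with 4, 0 and 0 counts in ApoE-/- and 1455, 1501 and 1645 in the double mutants. G6pc, the last enzyme of gluconeogenesis, had 0, 4 and 0 against 190, 227 and 152 counts. Without ApoE-/- 1, or without ApoE-/- 2, the rule would take 101 genes, and without ApoE-/- 3 it would take 72.

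By nephron segment, the proximal tubule held the most of the 66 genes, but its list was also the longest. The numbers therefore do not rank the segments. Of its list, 80 genes were matched in the table by symbol and 23 met the rule. The listed Tmem27 is annotated as Cltrn, was not matched and is not counted. The 23 were Kap, Acsm2, Miox, Mep1a, Mep1b, Slc22a12, Slc22a6, Slc22a7, Slc22a8, Slc22a28, Slco1a6, Slc7a13, Slc6a18, Slc5a2, Slc5a10, Slc2a2, Ugt2b37, Ugt2b38, Pdzk1, Hao2, Dao, Aadat and Nat8. Of the other 57 genes, 50 had 20 or more counts in all double mutants but a count in an ApoE-/- library. In 13 of these the count was in ApoE-/- 2 alone. That library also had the highest sum of liver markers, 68.2 CPM, against 5.75 and 2.56 CPM in ApoE-/- 1 and 3 and 15.03 to 19.2 CPM in the double mutants. The part of liver RNA in those counts was not tested. The number of the 80 genes with a count was 36, 45 and 30 in ApoE-/- 1 to 3 and 79, 77 and 78 in the double mutants.

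Some proximal tubule genes that other tissues also express had high counts in ApoE-/- libraries. Pck1, an enzyme of gluconeogenesis that fat and liver also express, had 124479, 15776 and 9452 counts in ApoE-/- and 38091, 50080 and 39764 in the double mutants, so the groups overlapped (edgeR adjusted p = 0.744). Cyp2e1, which liver and fat express too, overlapped as well (edgeR adjusted p = 0.985). The whole list summed to 2524, 448 and 262 CPM in ApoE-/- libraries, while double mutant libraries summed to 2306 to 2476 CPM, so ApoE-/- 1 was as high as the double mutants on that measure.

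The lists of other segments were shorter and held fewer of the genes. The loop of Henle had 2 of 19 listed genes in the set (Umod and Slc12a1), the distal and connecting tubule 3 of 15 (Klk1, S100g and Tmem213), intercalated cells 5 of 16 and principal cells of the collecting duct 0 of 12. Kcnj1, the potassium channel of the thick ascending limb, had 79, 79 and 80 counts in the double mutants and was dropped by family. Principal cell genes were read in both groups: Aqp2, the vasopressin-regulated water channel, had 26, 55 and 17 counts in ApoE-/- and 107, 127 and 67 in the double mutants (edgeR adjusted p = 0.145). Scnn1b, a subunit of the epithelial sodium channel, had 0 in ApoE-/- and 16, 25 and 34 in the double mutants, so it missed the minimum in 1 library. In edgeR 0 of 11 tested principal cell genes passed, with 5 higher at an unadjusted p under 0.05 and 5 higher by DESeq2, beside 8.87% and 4.77% of all genes.

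Glomerular genes behaved otherwise. None of the 8 podocyte genes met the rule, and all 8 had counts in every library. Nphs1, which encodes nephrin of the slit diaphragm, had 636, 226 and 485 counts in ApoE-/- and 552, 597 and 394 in the double mutants (edgeR adjusted p = 0.245). In edgeR 0 of the 8 passed, with 3 higher at an unadjusted p under 0.05 and 1 higher by DESeq2. Of all tested genes, 1.14% passed as higher in edgeR, 8.87% were higher at an unadjusted p under 0.05 and 4.77% by DESeq2. The median log2 difference of the list was 0.32, against -0.05 for all tested genes. Whether podocyte genes differ from tubule genes in their response was not tested.

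**Figure D3:**
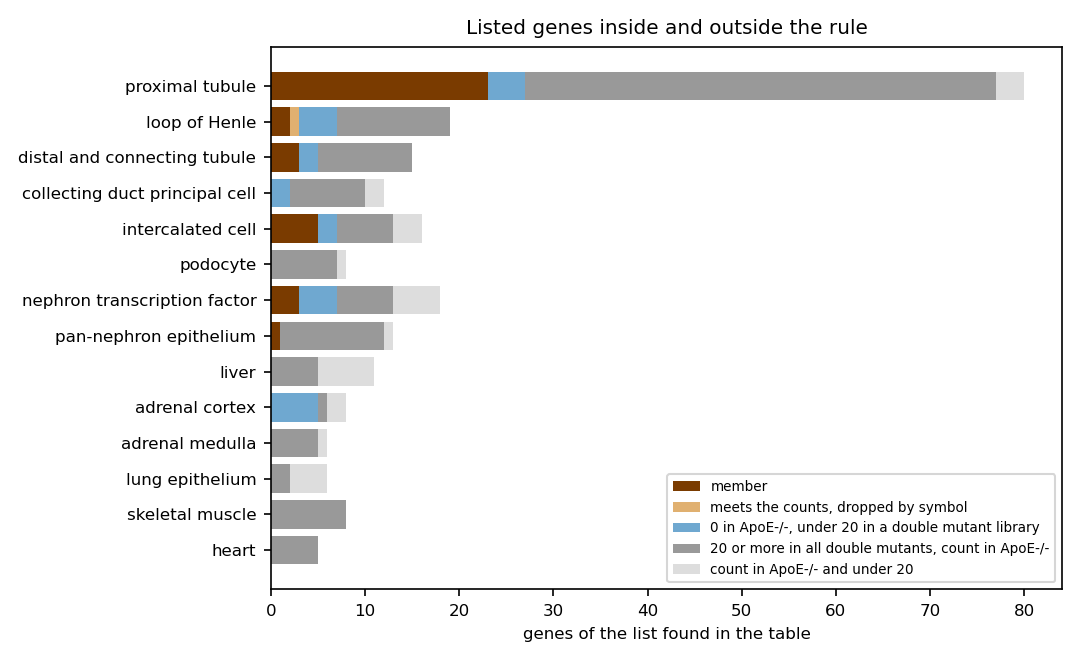
Number of listed genes in the table (horizontal axis) for 14 marker lists (rows), split by whether a gene met the rule, was dropped by symbol, or missed the rule through a count in ApoE-/-, through fewer than 20 counts in a double mutant library, or both. The proximal tubule holds 23 genes that met the rule and 50 that missed it only through a count in ApoE-/-. The 6 lists of other organs shown hold none that met it.

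Tubule genes outside the set gave a further description of the same contrast. The 5 tubule lists hold 143 genes, of which 130 were tested, 33 met the rule and 97 did not. Of these 97, 15 were higher in the double mutants in edgeR and 0 were lower, beside 1.14 and 0.0605% of all tested genes. The 15 include Kcnj1. The median log2 difference of the 97 was 2.81. In 71 of the 97 all double mutants lay above all ApoE-/- libraries, beside 14.9% of all tested genes. Lrp2, the endocytic receptor megalin, had 77, 16 and 14 counts in ApoE-/- and 684, 772 and 759 in the double mutants (log2 difference 5.22, SE 0.70, edgeR adjusted p = 0.0317). Egf, made by the distal nephron, had 90, 77 and 68 against 568, 735 and 708 counts (3.89, SE 0.25, edgeR adjusted p = 0.00629). Slc12a3, the thiazide-sensitive cotransporter of the distal tubule, had 46, 34 and 8 against 450, 425 and 394 counts (4.64, SE 0.65, edgeR adjusted p = 0.0345). Their groups did not overlap, and their ApoE-/- counts were not 0.

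Transcription factors of the nephron outside the set were also read. Hnf4a, the factor of proximal tubule and liver, had 0, 30 and 0 counts in ApoE-/- and 248, 195 and 232 in the double mutants (log2 difference 5.16, SE 1.58, edgeR adjusted p = 0.204). Tfcp2l1, a factor of the collecting duct, had 128, 110 and 97 against 244, 242 and 227 counts and was higher in the double mutants (1.89, SE 0.29, edgeR adjusted p = 0.0410). Foxi1, the factor of intercalated cells, had 0 against 21, 17 and 11 counts, and Sim2, Sim1 and Emx1 likewise had 0 in all ApoE-/- libraries and 4 to 18 counts in the double mutants. Pax2, Lhx1, Emx2 and Irx1 had counts in at least 1 library of each group, and none of them passed the edgeR threshold or, for Lhx1, the filter. Esrrb, Irx2 and Tfap2b overlapped between groups. Hnf4g had 22, 19 and 20 counts in ApoE-/- against 4, 4 and 0 (edgeR adjusted p = 0.377). Of the 11 tested outside the set, 1 (Tfcp2l1) was higher in edgeR, beside 1.14% of all tested genes. In 7 of the 11, all double mutants lay above all ApoE-/- libraries in CPM, beside 14.9% of all tested genes. Over the 14 tested factors, the 3 of the set included, 9 were higher in edgeR at an unadjusted p under 0.05. DESeq2 called 8 of the list higher. The shares of all genes are 8.87% and 4.77%.

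No gene of the lists for other organs met the rule, but these lists too were chosen with earlier results of these data known. All salivary gland genes were at 0 in all 6 libraries, and every pancreas gene was at 0 in the double mutants. Adrenal cortex genes summed to 4.80 to 7.85 CPM in ApoE-/- libraries and 5.32 to 6.24 CPM in double mutants, mostly through Star, the cholesterol carrier of steroid-making cells, with 194 to 588 counts in a library. Cyp11b1, Cyp11b2 and Nr5a1 were at 0 throughout, and Cyp21a1 had counts in double mutants only (8, 13 and 0). Adrenal medulla genes summed to 10.3, 0.287 and 2.93 CPM in ApoE-/- libraries, and double mutants 1 to 3 had 48.5, 56.1 and 22.2 CPM. Skeletal muscle genes summed to 72.4, 18.2 and 311 CPM in the double mutants and to 4.30 to 9.92 CPM in ApoE-/-, and heart genes to 126 to 292 against 14.5 to 51.4 CPM. The adrenal medulla, skeletal muscle and heart sums were higher in every double mutant library than in any ApoE-/- library. The part of these 3 lists in the values of the 66 genes was not tested. Of 6 adrenal medulla genes 0 passed in edgeR, with 3 higher at an unadjusted p under 0.05 and 1 by DESeq2. In edgeR 0 of 8 skeletal muscle genes passed, with 7 higher at an unadjusted p under 0.05 and 5 higher by DESeq2. Of 5 heart genes 1 (Sln) passed in edgeR, with 5 higher at an unadjusted p under 0.05 and 4 by DESeq2. The shares of all genes are 8.87% and 4.77%, as above.

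**Figure D4:**
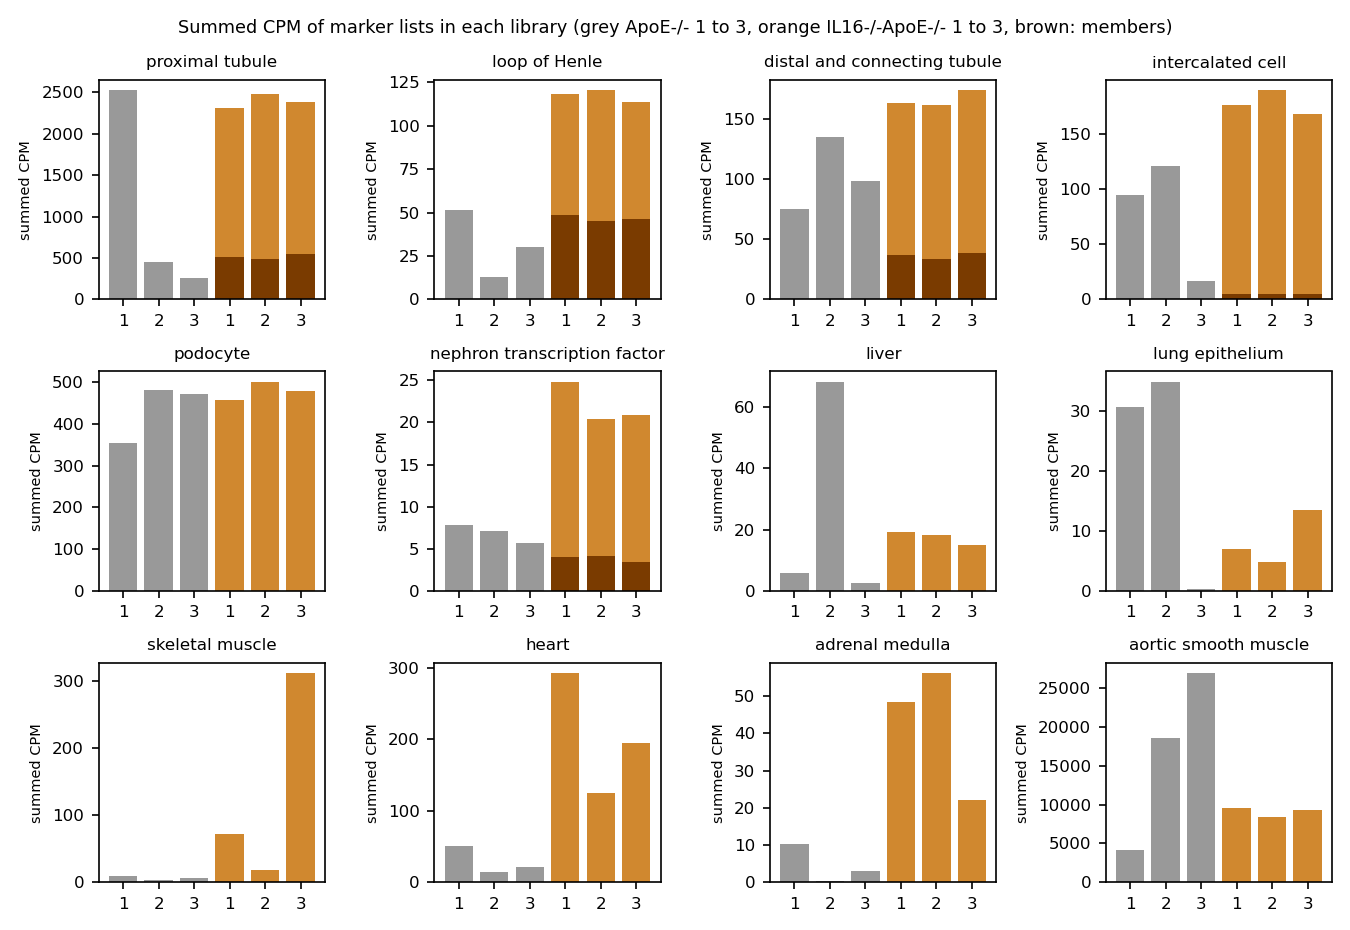
Summed CPM (vertical axes, each from 0) of 12 marker lists in ApoE-/- 1 to 3 (grey) and double mutant 1 to 3 (orange), with the share of genes that met the rule in brown. Loop of Henle genes sum to 114 to 120 CPM in the double mutants, while skeletal muscle genes differ between the same libraries from 18.2 to 311 CPM.

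The spread of the 66 genes within the double mutants was set beside that of other genes by level. The coefficient of variation of CPM over the 3 libraries had a median of 17.9%, from 1.42% (Gm19950) to 47.3% (Hsd3b2). The rule bears on it only through the minimum of 20 counts, which keeps out genes that fall low in 1 library. From 5 to 50 CPM the 14 genes of the set had a median of 8.57%, and 8345 other tested genes had 8.55%. From 2 to 5 CPM the medians were 23.9% (17 genes) and 19.3%, from 1 to 2 CPM they were 21.0% (19 genes) and 27.3%, and from 0.5 to 1 CPM they were 22.6% (15 genes) and 37.0%. The set was thus lower than other genes below 2 CPM, higher from 2 to 5 CPM and nearly equal above, with no test. In the same libraries the median was 116% for skeletal muscle genes and 51.6% for heart genes. The highest library exceeded the lowest by a median factor of 1.42, and by over 2 in 10 genes. Double mutant 2 was the lowest library in 35 of the 66 genes and double mutant 3 the highest in 30.

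**Figure D5:**
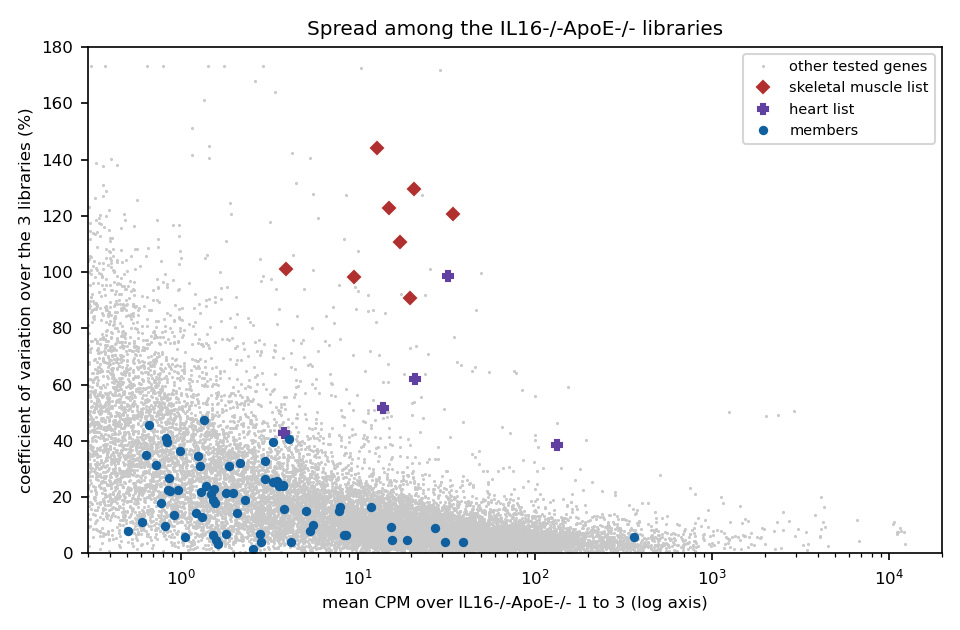
Coefficient of variation over the 3 double mutant libraries (vertical axis, %) against mean CPM (log axis) for the 66 genes (blue), other tested genes (grey), and the skeletal muscle (red) and heart (purple) lists. The 66 genes reach at most 47.3%, while skeletal muscle genes have a median of 116%.

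Close copies limit how firmly some genes can be told apart. In 4 genes another gene matched at 95% identity or more over at least 60% of the transcript, so reads could be split between the copies by the counting. The pairs were Slc22a28 with Slc22a30 (98.8%), Cyp2a4 with Cyp2a5 (98.2%), Cyp4a31 with Cyp4a10 (96.1%) and Ugt2b38 with Ugt2b5 (95.5%). Cyp2a5 had 0, 56 and 0 counts in ApoE-/- and 185, 57 and 108 in the double mutants. Slc22a30 had 0, 9 and 0 against 77, 67 and 108 counts. All 4 copies had counts in ApoE-/- 2 and none in ApoE-/- 1 and 3. Klk1 matched Klk1b5 at 94.4%, and that gene had 14, 0 and 8 counts in the double mutants. Another gene lies on the other strand of 22 of the 66 and on the same strand of 6, and the sources used here do not say whether counting used strand.

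By position, 13 of the 66 genes lie in 5 groups with gaps under 500 kb. Slc22a28, Slc22a8 and Slc22a6 share chr19:8062209-8628299, and Umod, Acsm2 and Gm19950 share chr7:119462711-119643469 (GRCm38). Hsd3b2, Hsd3b3 and Hao2 share chr3:98709255-98893239. The other groups are pairs of paralogs, Cyp2j13 with Cyp2j11 and Ugt2b37 with Ugt2b38. Chromosome 7 held 10 of the 66 genes (15.2%, beside 7.70% of tested genes). Within 10 Mb of Il16 lies 1 of the 66, and within 10 Mb of Apoe lie 2. The share of tested genes in these windows was not taken, so these numbers cannot be called few or many. Protein-coding genes made up 97.0% of the set and 78.9% of tested genes. The median transcript length was 1996 bases in the set, 2347 in tested genes and 2661 in tested protein-coding genes.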

How the data were processed

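RNA from 6 mouse aorta samples, 3 per genotype, was selected by poly(A) and made into strand-specific libraries, per the labels' protocols. The authors deposited a table of raw read counts per gene. Cutadapt, HISAT2 and StringTie are named in the submitters' processing notes; the build and strand setting were not given in the sources used here. Of 55401 gene identifiers, 55141 matched GENCODE M21 (GRCm38) and took symbols, types and lengths from it.

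The rule was applied to the counts as deposited. The genotype contrast was fitted on all 6 samples with edgeR 4.0.16 (filterByExpr with a minimum count of 10 and a total of 15, TMM, robust quasi-likelihood test, Benjamini-Hochberg, threshold 0.05) in R 4.3.3, and DESeq2 1.42.0 was an alternative. The fit was tested on simulated data. CPM uses TMM library sizes. Copies were sought with BLAST+ 2.17.0, and promoters come from RefSeq (GRCm38.p6).

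The genes and all marker lists were chosen with earlier results of these data known. Genes of the set with an official name are named, apart from a few genes that are not reported here, and up to 6 of those with a predicted or clone symbol; library values are given for up to 6 per group by highest mean CPM. From each list up to 6 other genes by mean CPM could be named, with all transcription factors, Il16 and Apoe. Slc34a1, G6pc, Lrp2, Scnn1b, Kcnj1, Cyp11b1, Cyp11b2, Nr5a1, Cltrn and the copies fall outside this rule or its limit and were chosen after their values were seen. Alternatives changed the counts allowed, the minimum, families, normalization, filter, tool, replicate block, promoter window and the libraries used.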

Additional observations from a re-analysis of the deposited data

How the results depend on the processing

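Looser rules can only add genes. Allowing 1 or 3 counts in each ApoE-/- library gave 67 and 68 genes, and allowing 4, a choice made after seeing the data, gave 78. A minimum of 10 gave 89 genes and a minimum of 50 gave 45. Leaving out 1 library at a time gave 70 to 101 genes, with 101 without ApoE-/- 1 and 101 without ApoE-/- 2. The mirrored rule, also chosen after seeing the data, gave 14 genes.

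Calls of the genotype contrast moved with the tool and the libraries. Genes called higher numbered 226 in edgeR, 1133 in DESeq2 and 0 to 2651 when 1 library was left out. Genes called lower numbered 12, 347 and 0 to 2580. Tubule list genes called higher numbered 46, 87 and 0 to 95, of which the edgeR count holds 31 genes that the rule chose on these counts. Those outside the set numbered 15, 54 and 0 to 62. The highest values came without ApoE-/- 1, and 0 came without any 1 of the double mutant libraries. Without ApoE-/- 2, 101 genes were higher and 7 lower, and without ApoE-/- 3, 163 and 19. Other scalings and filters gave 226 to 272 higher and 12 to 15 lower. The cause was not tested.

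Replicate numbers are shared by the groups. With a replicate block edgeR called 0 genes higher and 0 lower, 0 tubule list genes and 0 of those outside the set, while 1643, 684, 95 and 62 had an unadjusted p under 0.05. Same-numbered samples deviated with correlations of -0.0400, -0.0271 and -0.00951, and no sample correlated best with its own number, so the numbers were not taken as pairs.

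The median coefficient of variation of the 66 genes was 17.9% with library totals too, and 10.6 to 17.3% without 1 library. The share of promoters with CAAAGTCCA moved from 9.62 to 3.85% when the bases after the start were left out, and GTTAAT stayed at 28.8%. Depth limits genes near 20 counts most, and excess multiples of 4 among low counts leave the size of 1 read unknown.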

Other observations

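Further nephron genes were kept out of the set by counts in a single ApoE-/- library. Without ApoE-/- 2 the rule would add 35 genes, which had 1 to 125 counts in that library (median 11) and of which 13 were on the tubule lists. Keg1, a proximal tubule gene, had 8 counts there and 834, 795 and 960 in the double mutants. Cyp2j5, a cytochrome P450 of the proximal tubule, had 12 against 811, 784 and 964 counts. Ugt3a2, a glycosyltransferase, had 15 against 419, 478 and 502 counts. The glycine acyltransferase gene Glyat had 11 against 402, 347 and 348 counts. The fibrinogen genes Fga and Fgg, made by liver, were also among the 35, with 82 and 125 counts in ApoE-/- 2. They had 269, 199 and 42 counts and 268, 261 and 44 counts in the double mutants, and so were lowest in double mutant 3.

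Without ApoE-/- 1 the rule would also add 35 genes, of which 3 were on the tubule lists. Cltrn, which is the listed Tmem27 but was not matched by symbol, is not among the 3. This amino acid carrier chaperone gene had 28, 0 and 0 counts in ApoE-/- and 916, 846 and 960 in the double mutants. Other genes of these 35 are not renal. The skeletal muscle myosins Myh1 and Myh2 had 51 and 56 counts in ApoE-/- 1 and 40 to 1538 and 45 to 1466 counts in the double mutants. The neuronal receptor genes Htr3a and Chrnb4 had 229 and 74 counts in ApoE-/- 1, with 350, 308 and 56 and 140, 127 and 40 counts in the double mutants. These genes were chosen after their values were seen.

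The mirrored rule, with 0 in each double mutant library and at least 20 in each ApoE-/- library, was met by 14 genes of mixed type. They were Gm2272, Gm10800, Vmn2r-ps117, Gm42909, AU018091, Gm11677, 4933430H06Rik, Gm42894, Tmprss11e, Ptchd4, Vmn2r113, Gm45163, Rbfox3 and Olfr876, and none was on a nephron list. Gm10800 had 405, 90 and 428 counts, and the other 13 had 20 to 73 counts. With a minimum of 50 counts, 47 genes were absent from ApoE-/- and 1 from the double mutants, before families were dropped. With a minimum of 10 the numbers were 100 and 62, and with a minimum of 5 they were 140 and 165. The ApoE-/- libraries are the deeper ones, so the same minimum stands for a lower level there.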
